A study of Mus musculus and Rattus norvegicus with 26 samples.

Results

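The auxiliary subunits of voltage-gated calcium channels were followed through lists of intronic contigs, which are stretches of an intron covered by clustered sequencing reads. The set was defined by gene symbol and held 8 genes, namely the beta subunit genes Cacnb1, Cacnb2, Cacnb3 and Cacnb4 and the alpha2delta subunit genes Cacna2d1, Cacna2d2, Cacna2d3 and Cacna2d4. At least 1 contig was listed for 7 of the 8, and Cacnb3 was in no list. These genes held 190 of 112345 contigs, of which 94 lay in Cacnb2 and 62 in Cacna2d1, and the 6 lists named 13695 gene symbols in all. The set was chosen with Cacnb2 in view, so its reads are given as a description.

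The study asked which transcripts keep part of an intron in the cytoplasm, and it pooled the libraries of each condition into 1 list. Dendrites (3 mouse and 2 rat libraries) and somas (3 mouse and 3 rat libraries) came from hippocampal neurons of embryonic day 18, cultured from C57BL/6 mice or Sprague-Dawley rats. The 6 brown adipose tissue (BAT) cells of the labels came from the interscapular fat of CD-1 mice at embryonic day 17.5. The 9 cardiomyocytes of the labels came from the ventricles of C57BL/6 embryos at day 14.5. The study describes fewer analysed cells of both kinds than the labels name, so these lists may hold fewer than 6 and 9 cells. The cardiomyocyte embryos were hemizygous for the Fucci cell cycle probe mAG-hGem(1/110), driven by a CMV promoter, and the cells were flow sorted. No group received a treatment. A dendrite library joined many hand-cut dendrites, whereas somas, BAT cells and cardiomyocytes were single cells that contained their nucleus, so that unspliced nuclear RNA and cytoplasmic RNA cannot be told apart in them. The RNA was copied by 3 rounds of poly(T)-primed linear (aRNA) amplification.

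Each intron carried 1 read count, and the lists summed to between 1007530 reads (rat dendrites) and 17858440 reads (BAT cells). Counts are given as reads, or as reads per 1000000 listed intronic reads (RPM), with 95% Poisson intervals that cover counting error only. Every list was a single pooled value, so no comparison had replicates and none was tested. Exonic reads were not analysed here, so a gene that is not listed may still be expressed, and fewer expressing cells and less RNA per cell cannot be told apart. Marker genes fitted the labels in part. The cardiomyocyte list held 8 of 10 cardiomyocyte markers (26861 RPM in sum, without Nppa and Nkx2-5) and 1 of 8 neuron markers (14.2 RPM), but also 3 of 8 brown fat markers (287 RPM in sum), of which Cidea had 213 RPM against 86.7 in the BAT list. The mouse soma list held 8 of 8 neuron markers (6126 RPM in sum) and 3 of 5 astrocyte markers (142). The BAT list held 6 of 8 brown fat markers (7847 RPM in sum), but also 5 of 8 neuron markers (1194 RPM in sum), 6 of 10 cardiomyocyte markers (2780) and 4 of 5 skeletal muscle markers (322). The mouse dendrite list held 6 of 8 neuron markers (217 RPM in sum), 5 of 10 cardiomyocyte markers (519), 4 of 8 brown fat markers (208), 3 of 5 skeletal muscle markers (77.4) and 4 of 5 astrocyte markers (966), and 2826 of the 2983 astrocyte marker reads lay in Aldh1l1. Rat dendrites held 3 of 8 neuron markers (359 RPM in sum), 1 of 4 oligodendrocyte markers (138), 2 of 8 brown fat markers (134), 1 of 10 cardiomyocyte markers (77.4) and 1 of 5 astrocyte markers (68.5). Rat somas held 4 of 8 neuron markers (3834 RPM in sum), 2 of 5 astrocyte markers (120) and 1 of 10 cardiomyocyte markers (59.7), and the other marker sets summed to less than these. The part of other cell types in the values below was not tested.

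A voltage-gated calcium channel is built around a pore-forming alpha1 subunit. The cytosolic beta subunit binds the pore, carries it to the membrane and shapes its gating, while the alpha2delta subunit sits on the outer face and raises the number of channels at the surface. In the heart the beta subunit from Cacnb2 and the alpha2delta subunit from Cacna2d1 accompany the L-type pore encoded by Cacna1c, and neurons use several beta and alpha2delta genes, of which Cacnb4 and Cacna2d2 are known from mutant mice with ataxia and seizures.

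Stretches covered in all 4 mouse lists are shown first, because they are the places that the mouse conditions had in common. There were 6 of them, 4 in Cacnb2 and 2 in Cacna2d1, but this count depended on the setting. With introns of at least 32 reads 3 were left, all in intron 2 of Cacnb2. Intron 5 of Cacnb2 had 4 reads in mouse somas, and intron 37 of Cacna2d1 had 4 in cardiomyocytes. Leaving out contigs on annotated pseudogenes, an alternative chosen after seeing the data, left 3 stretches, none of them in intron 2 of Cacnb2. Of the 6, 3 are printed from the NCBIM37 (mm9) genome, 5′ to 3′ on the plus strand, which is the strand of both genes. The first lay in intron 2 of Cacnb2 at chr2:14548502-14548726, and capitals mark bases that differ from the Rpl26 messenger RNA, which it matched on the opposite strand.
Cacnb2 intron 2: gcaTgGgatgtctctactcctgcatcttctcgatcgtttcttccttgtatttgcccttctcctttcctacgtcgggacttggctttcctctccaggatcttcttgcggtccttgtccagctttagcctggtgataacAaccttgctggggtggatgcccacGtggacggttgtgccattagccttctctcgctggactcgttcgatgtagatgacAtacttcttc
The second began with the stretch in intron 5 of Cacnb2, which ended at position 14885194, and is printed on to the next tract of adenines, in capitals, at chr2:14885052-14885322.
Cacnb2 intron 5: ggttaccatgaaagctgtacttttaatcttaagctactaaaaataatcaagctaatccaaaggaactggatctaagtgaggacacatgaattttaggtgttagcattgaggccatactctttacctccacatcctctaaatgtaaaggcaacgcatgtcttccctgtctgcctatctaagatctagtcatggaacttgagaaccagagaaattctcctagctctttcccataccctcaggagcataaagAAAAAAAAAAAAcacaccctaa
The third lay in intron 37 of Cacna2d1 (numbered on NM_009784) at chr5:15874556-15874679, and capitals mark a tract of adenines within it.
Cacna2d1 intron 37: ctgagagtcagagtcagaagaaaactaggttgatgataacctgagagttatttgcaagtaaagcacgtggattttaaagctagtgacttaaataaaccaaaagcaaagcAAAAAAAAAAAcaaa

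The Rpl26-like stretch was 225 nt long and aligned over 227 positions at 96.9% identity, with 7 differences including gaps. It overlapped the annotated pseudogene Gm13268 and matched transcripts of 4 gene symbols. Rpl26 encodes a protein of the large ribosomal subunit. The study kept uniquely mapped reads, the lists do not give how many reads of the intron fell in this stretch, and whether reads came from Rpl26 messenger RNA or from the intron was not tested. The stretch in intron 5 was 143 nt long, matched no protein-coding transcript of another gene and was followed by a tract of 12 adenines that began 107 nt after its end. The stretch in intron 37 of Cacna2d1 was 124 nt long, likewise matched no other transcript and held a tract of 11 adenines near its 3′ end. The longest of the 6 stretches is not printed. It lay in intron 23 of Cacna2d1 (NM_009784) at chr5:15851890-15853031, was 1142 nt long, overlapped no annotated pseudogene and matched transcripts of 1367 gene symbols, at 96.6% identity over 436 positions in the best of them.

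The shortest members were the least often listed. In mouse dendrites 5 of 8 members were listed, where 43.8% of all protein-coding genes with an intron were listed. In mouse somas 5 of 8 were listed (background 30.1%), in BAT cells 7 of 8 (background 51.8%) and in cardiomyocytes 4 of 8 (background 31.6%). Of the 8 members, 6 span at least 100 kb in the mouse, and of all protein-coding genes of that size 77.4% were listed in mouse dendrites, 60.7% in mouse somas, 77.9% in BAT cells and 55.9% in cardiomyocytes. The members that were listed once or never were the shortest, Cacnb1 with 21.5 kb and Cacnb3 with 12.3 kb. In the rat 4 of the 8 members were in either list, all 4 of them in dendrites and 2 in somas, where 78.5% and 59.4% of the 5712 genes of either rat list were listed. All 6 rat entries were alpha2delta genes, and no beta subunit gene was listed in the rat.

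**Figure D1:**
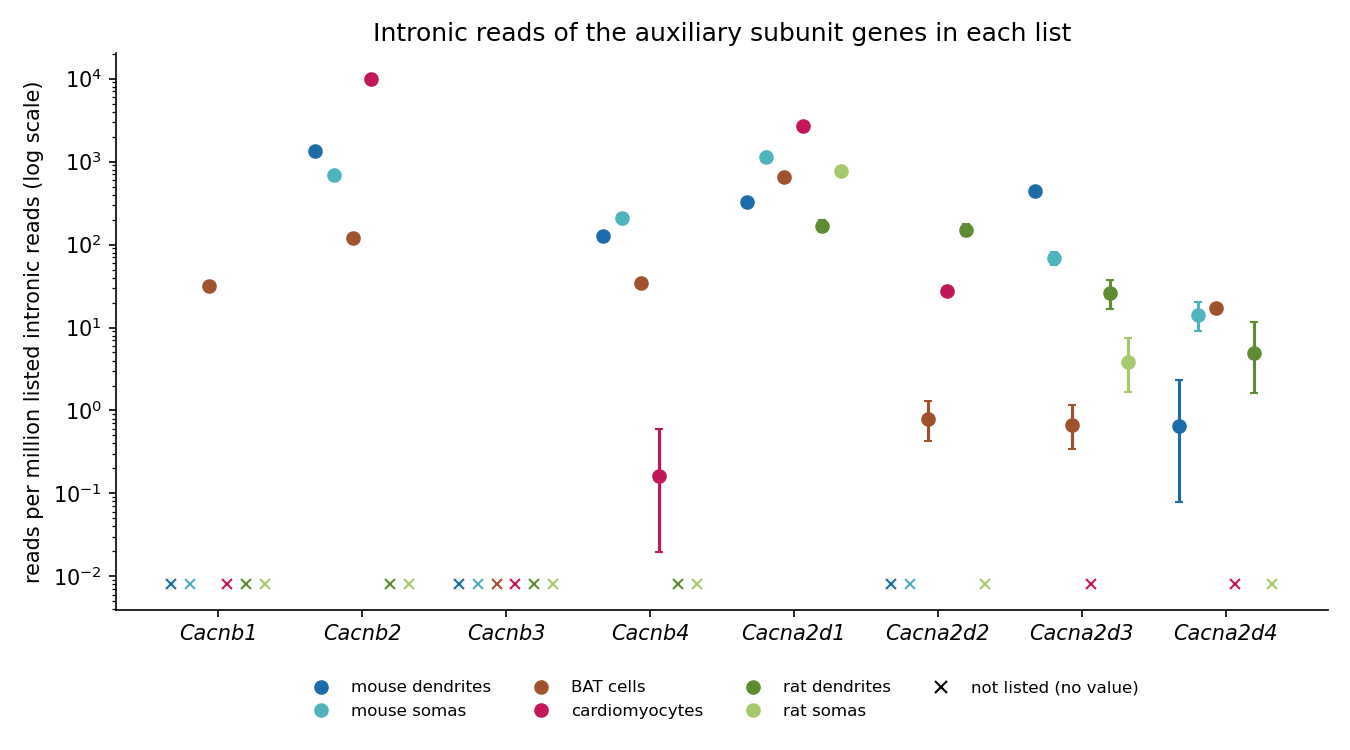
RPM (reads per 1000000 listed intronic reads, log axis) of each auxiliary subunit gene in the 6 pooled lists, with bars for the 95% Poisson interval of counting error and crosses where a gene was not listed. Cacnb2 in cardiomyocytes, at 10032, was the highest value, and Cacnb3 had no value in any list.

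Among the beta subunit genes, Cacnb2 had the most reads in each mouse list. Cacnb2 (NM_023116) spans chr2:14525933-14909535. It had 4138 reads in mouse dendrites, 1283 in mouse somas, 2155 in BAT cells and 122399 in cardiomyocytes. Scaled to the list, these were 1341 (interval 1300 to 1382), 691 (654 to 730), 121 (116 to 126) and 10032 (9976 to 10088) RPM. Cardiomyocytes were thus highest and BAT cells lowest, and no neighbouring pair of these intervals overlapped. By reads Cacnb2 was the 6th of 6205 genes in cardiomyocytes, the 85th of 8607 in mouse dendrites, the 293rd of 5895 in mouse somas and the 1569th of 10220 in BAT cells. It made up 1.00% of all listed reads in cardiomyocytes and 78.7% of the reads of the 8 members there. It was not listed in either rat list.

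Intron 2 carried most of these reads. The intron spans chr2:14535984-14796396, 260 kb of the gene, and had 3529 reads in 18 contigs in mouse dendrites, 1279 reads in 12 contigs in mouse somas, 2135 reads in 16 contigs in BAT cells and 108413 reads in 38 contigs in cardiomyocytes. It held 85.3%, 99.7%, 99.1% and 88.6% of the gene's reads in that order. In cardiomyocytes no other intron of the list had more contigs, and 3 of 13056 introns had more reads. It ranked 5th by number of contigs in both mouse dendrites and mouse somas and 13th in BAT cells. The contigs covered 10.9% of the intron in cardiomyocytes and between 1.94% and 2.66% of it in the other lists.

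The contigs lay along the whole intron. The first and the last were 6.71 and 258 kb from its start in mouse dendrites, 7.07 and 232 kb in mouse somas, 12.1 and 212 kb in BAT cells and 4.82 and 251 kb in cardiomyocytes. The annotation places first exons of shorter Cacnb2 transcripts 149, 210 and about 259 kb into the intron. Of the 84 contigs, 29 began beyond the start of the first of these exons and 14 beyond that of the next. A BAT contig among these 14, at chr2:14745791-14746051, overlapped the first exon at 210 kb itself. Beta subunit isoforms from the different starts differ in their N-terminus. Intron 3, which follows the last of these starts and is 83.9 kb long, held no contig in any mouse list. Of the 13 introns of the transcript, 7 held a contig in some list.

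**Figure D2:**
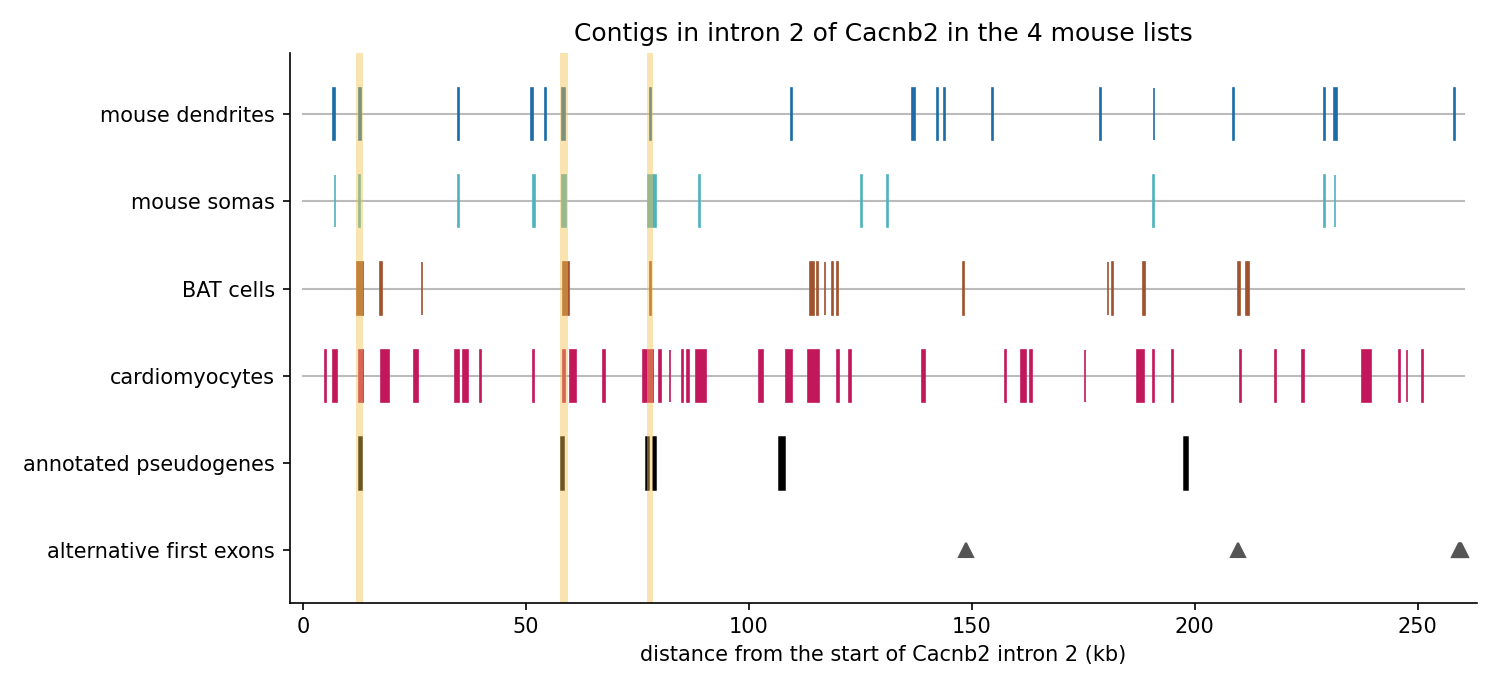
Contigs (coloured boxes) along intron 2 of Cacnb2 in the 4 mouse lists, plotted by distance in kb from the start of the intron, with annotated pseudogenes (black) and alternative first exons (triangles). Yellow bands mark the 3 stretches covered in all 4 lists, which lie 12.5, 58.3 and 77.7 kb into the intron.

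Contigs of intron 2 often met between lists. In mouse somas 10 of 12 contigs overlapped a contig of another list, in mouse dendrites 9 of 18, in BAT cells 8 of 16 and in cardiomyocytes 13 of 38. Somas and dendrites shared 8 contig positions, which were 66.7% of the soma contigs and 44.4% of the dendrite contigs. Over all genes, 1723 introns were listed in the 4 mouse lists and 27.6% of them had a stretch covered in each list. Cacnb2 intron 2 had 3 such stretches and was the only one of those 1723 introns with 3 or more. When contigs on annotated pseudogenes were left out, an alternative chosen after seeing the data, none of the 3 remained.

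Annotated pseudogenes lay under part of these contigs. The intron contains 6 of them, and 4 were overlapped by a contig. Gm13268 and Gm13312 were each overlapped in all 4 lists, and Gm13314 and Gm13311 in 1 list each. Of the 84 contigs, 10 overlapped a pseudogene, which made 5.62% of the 178 mouse contigs of the set against 0.418% of all mouse contigs. Of the 6 stretches covered in all 4 lists, 2 overlapped a pseudogene, against 7.99% of the 488 such stretches over all genes. The stretch at chr2:14594269-14594717 (449 nt) overlapped Gm13312 and matched transcripts of 99 gene symbols. The stretch at chr2:14613724-14613962 (239 nt) lay between Gm13314 and Gm13311 and matched the transcript of Nhp2l1, which encodes a small ribonucleoprotein component, at 96.6% identity over 238 positions. Another 6 contigs of the intron lay within Gm13269, a noncoding gene on the opposite strand, and the libraries did not keep strand, so reads of Cacnb2 and Gm13269 cannot be told apart there.

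Intron 5 of Cacnb2, 3.11 kb long, was the other intron listed in all 4 mouse lists. It had 609 reads in mouse dendrites, 4 in mouse somas, 15 in BAT cells and 6412 in cardiomyocytes. Dendrites and cardiomyocytes were high, and somas and BAT cells were at a few reads. Its contigs overlapped an exon of Cacnb2-003, an annotated processed transcript of the same gene, in each list. Intron 6 had 7528 reads in 1 contig in cardiomyocytes, at 254 reads per 50 nt, and was in no other list. The remaining introns of Cacnb2 held 42 reads or fewer.

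The other beta subunit genes were much lower. Cacnb4 (NM_146123), a beta subunit of the brain, spans chr2:52283845-52532350 and had 389 reads in mouse dendrites, 388 in mouse somas, 622 in BAT cells and 2 in cardiomyocytes. These were 126, 209, 34.8 and 0.164 RPM, with mouse somas highest and cardiomyocytes lowest. The reads came from different introns. Intron 12 held 376 reads in mouse dendrites and 603 in BAT cells, whereas intron 9 held 334 reads in mouse somas, where intron 12 was not listed. The contigs of intron 12 overlapped A430018G15Rik, a noncoding gene on the opposite strand, so that without strand the source of these reads cannot be told apart. Without intron 12, Cacnb4 kept 13 reads in mouse dendrites and 19 in BAT cells.

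Cacnb1 (NM_145121), which encodes the beta subunit of skeletal muscle channels and is also used in neurons, was listed in BAT cells only. It had 560 reads in 1 contig of 365 nt in intron 3, or 31.4 RPM. Per 100 kb of intronic sequence this was 184 RPM, more than for Cacna2d1 (150) and Cacnb2 (32.2) in the same list. Skeletal muscle markers were listed in the BAT cells (Myh8 at 3161 reads and Myh3 at 1197), and their part in the Cacnb1 reads was not tested. Cacnb3, a beta subunit of many tissues including brain, had no contig in any list.

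Among the alpha2delta genes, Cacna2d1 was the only one in all 6 lists. It spans chr5:15440509-15880329 and encodes the alpha2delta subunit of heart, muscle and brain that binds gabapentin. It had 1013 reads in mouse dendrites, 2134 in mouse somas, 11521 in BAT cells, 32824 in cardiomyocytes, 169 in rat dendrites and 1630 in rat somas. Scaled to the list these were 328 (interval 308 to 349), 1150 (1102 to 1200), 645 (633 to 657), 2690 (2661 to 2720), 168 (143 to 195) and 778 (741 to 817) RPM. Cardiomyocytes were highest, and dendrites were below somas in both species. Cacna2d1 was the 39th gene by reads in cardiomyocytes and the 170th in mouse somas. Per 100 kb of intronic sequence it had 624 RPM in cardiomyocytes against 2680 for Cacnb2, and 267 in mouse somas against 185 for Cacnb2.

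Unlike Cacnb2, Cacna2d1 spread its reads over many introns. Contigs lay in 16 of 38 introns of the longest matching transcript, and the intron with the most reads held between 30.5% and 59.1% of the gene's reads in the mouse lists. That intron differed between lists. It was intron 4 in cardiomyocytes (9997 reads), intron 5 in BAT cells (6806 reads) and intron 37 in both mouse dendrites (391 reads) and mouse somas (1117 reads). Intron 37 had 4 reads in cardiomyocytes and 152 in BAT cells. Introns 7, 10, 23 and 37 were listed in all 4 mouse lists. The lists number introns 23 and 37 on NM_009784, which has 37 introns, and they are introns 24 and 38 of the longest transcript (NM_001110844), whereas introns 3, 4, 5, 7 and 10 have the same number in both. The longest intron, intron 3 with 137 kb, held no contig.

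**Figure D3:**
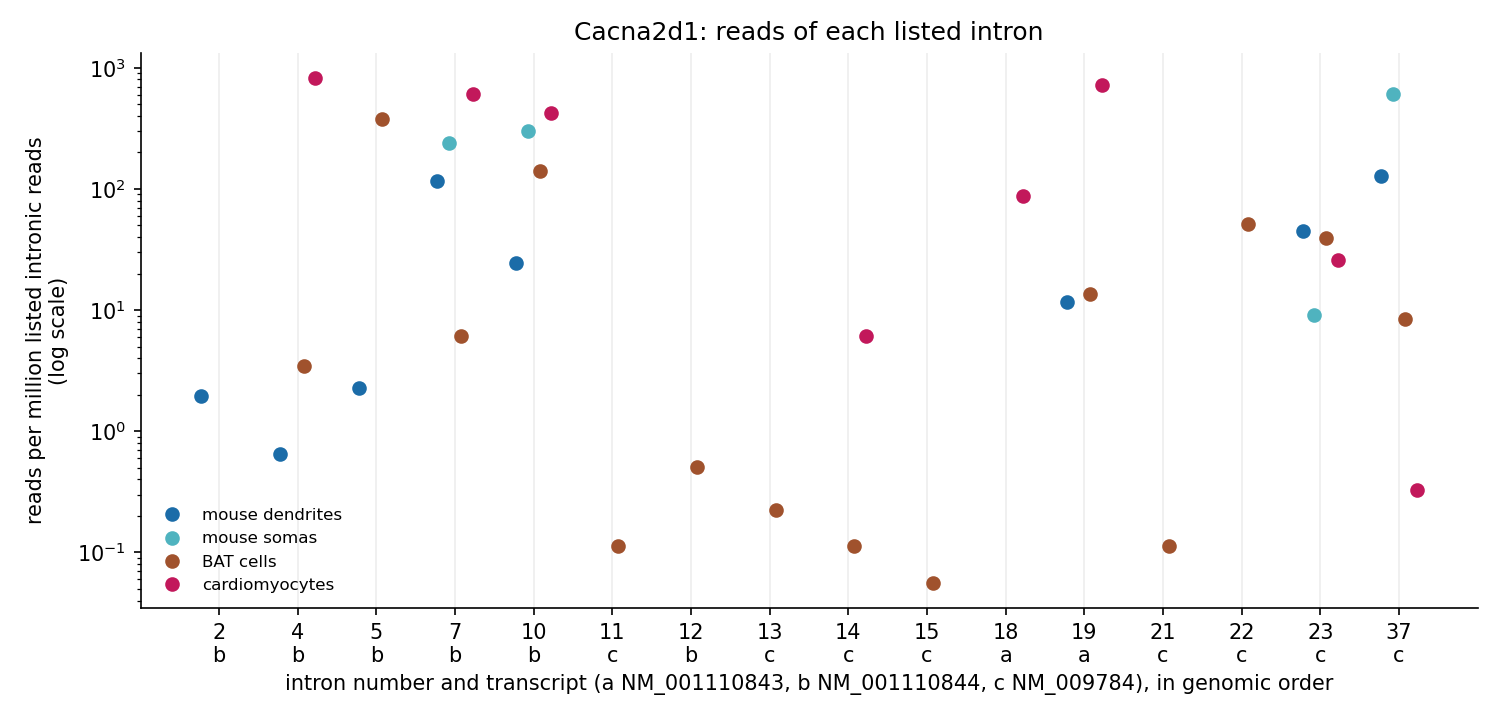
RPM (reads per 1000000 listed intronic reads, log axis) of each listed intron of Cacna2d1 in the 4 mouse lists, in genomic order, labelled by the intron number and RefSeq transcript of the lists. Intron 4 was highest in cardiomyocytes, intron 5 in BAT cells and intron 37 in the mouse neuron lists.

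Cacna2d2, an alpha2delta gene of cerebellar neurons, was listed in 3 lists. It had 14 reads in BAT cells, 340 in cardiomyocytes and 150 in rat dendrites, or 0.784, 27.9 and 149 RPM. In cardiomyocytes 337 of its reads came from 1 contig of 418 nt in intron 4. The contigs of intron 1 in both mouse lists overlapped Gm17141, a gene on the opposite strand. The rat reads lay in introns of the same numbers, with 140 in intron 1 and 10 in intron 4, but positions were not compared between the species.

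Cacna2d3, which encodes an alpha2delta subunit of neurons, had 1380 reads in mouse dendrites, 126 in mouse somas and 12 in BAT cells, and 26 reads in rat dendrites and 8 in rat somas. As RPM these were 447, 67.9, 0.672, 25.8 and 3.82, with dendrites above somas in both species. Intron 31 held 1092 of the reads in mouse dendrites and 6 in mouse somas, and the contigs of the 2 lists overlapped there, at chr14:29776226-29776752 and chr14:29776519-29776736. In mouse somas 120 reads came from intron 18, at another position than the dendrite contig of that intron. In the rat, intron 35 held a contig with the same ends in dendrites (16 reads) and somas (6 reads), at chr16:4176257-4176459 of the rn4 build.

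Cacna2d4, an alpha2delta gene of the retina, had all its contigs in intron 18. It had 2 reads in mouse dendrites, 26 in mouse somas, 303 in BAT cells and 5 in rat dendrites, or 0.648, 14.01, 16.97 and 4.96 RPM. The intervals of mouse somas (9.15 to 20.5) and BAT cells (15.1 to 19.0) overlapped. The intron is 15.2 kb long in the mouse and was 1 of 37. The soma contig overlapped 1 of the 3 BAT contigs, and the dendrite contig overlapped none.

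Ratios of RPM were formed for members listed in both lists of a comparison, and 4-fold or more was counted as past the fold. Between mouse dendrites and mouse somas, 1 of 5 members was past the fold upward (background 33.2% of 4739 genes) and 1 downward (background 24.9%). Cacna2d3 was 6.58-fold higher in dendrites (counting interval 5.48 to 7.97), a log2 ratio of 2.72 that was 4.72 without the intron with the most reads of each gene. That intron was 31 in dendrites and 18 in somas. The 4.72 thus set 54 and 234 dendrite reads of introns 18 and 20 against 6 soma reads of intron 31, and the same intron was not compared. Cacna2d4 was 21.6-fold higher in somas (5.41 to 188), with 26 reads against 2. Cacnb2 was 1.94-fold higher in dendrites (1.82 to 2.07), a log2 ratio of 0.96 that was 0.59 with upper-quartile and 0.28 with median scaling. With the intron with the most reads of each gene left out (intron 2 for Cacnb2) and the reads left scaled anew, the log2 ratio of Cacnb2 was 6.38. This was past the fold and rested on 609 reads left in dendrites and 4 in somas. Cacna2d1 was 3.50-fold higher in somas (3.25 to 3.78) and Cacnb4 was 1.66-fold higher in somas (1.44 to 1.91). The log2 ratio of Cacna2d1, -1.81, passed the fold with upper-quartile (-2.18) and median scaling (-2.49), and that of Cacnb4, -0.73, without the intron with the most reads of each gene (-2.92). For Cacnb4 that intron was 12 in dendrites and 9 in somas. The value thus set 2 and 11 dendrite reads of introns 3 and 8 against 54 soma reads of intron 5. When contigs over 400 nt were left out of the somas, as the study did for whole cells, Cacnb2, Cacnb4, Cacna2d3 and Cacna2d4 kept all their soma reads, because an intron keeps its whole count while 1 of its contigs stays. The listed reads of the somas fell to 47.8%, and this alone moved each of their log2 ratios by 1.06 toward somas, to -0.11 for Cacnb2, -1.79 for Cacnb4, 1.66 for Cacna2d3 (below the threshold) and -5.50 for Cacna2d4. Cacna2d1 kept 1000 of its 2134 soma reads and was at -1.78. These values thus carry no information on the contigs of the first 4 genes. Between rat dendrites and rat somas both shared members were past the fold, Cacna2d3 6.76-fold higher in dendrites (2.97 to 17.3, background 35.7%) and Cacna2d1 4.64-fold higher in somas (3.96 to 5.47, background 24.6%). The values of these 2 genes had the same direction in both species, and Cacna2d3 rested on 8 reads in rat somas. With the limit on contig length the rat soma total fell to 29.6%, which moved a gene that kept its reads by 1.75. Cacna2d3 kept all 8 reads and went from 2.76 to 1.00 through this scaling alone, under the threshold, and Cacna2d1, with 1417 of 1630 reads kept, went from -2.21 to -3.77.

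Between cardiomyocytes and BAT cells all 4 shared members were past the fold, 3 upward in cardiomyocytes (background 28.3% of 5442 genes) and 1 downward (background 34.3%). Cacnb2 was 83.1-fold higher in cardiomyocytes (79.7 to 86.8), Cacna2d2 35.5-fold (20.9 to 65.7) and Cacna2d1 4.17-fold (4.08 to 4.26). The log2 ratio of Cacna2d1, 2.06, was 1.71 and no longer past the fold with upper-quartile scaling. Without the intron with the most reads of each gene (intron 2 for Cacnb2) the log2 ratio of Cacnb2 was 9.66 in place of 6.38. Cacnb4 was 212-fold higher in BAT cells (58.6 to 1758), with 622 reads against 2. That value rested on the BAT contig of 624 nt in intron 12, where A430018G15Rik lies on the opposite strand. With contigs of at most 400 nt, 19 reads were left in BAT cells and the log2 ratio of Cacnb4 was -2.53 in place of -7.73, still past the fold. The Cacna2d2 value rested on its intron 4 contig of 418 nt. When contigs over 400 nt were left out, 3 of its 340 reads stayed in cardiomyocytes and the log2 ratio of Cacna2d2 was -1.502 in place of 5.15, and that of Cacna2d1 was 2.86. Without the intron with the most reads, intron 4 in cardiomyocytes but intron 1 in BAT cells, the Cacna2d2 value was 0.79. It set 1 and 2 cardiomyocyte reads of introns 1 and 8 against 2 BAT reads of intron 4. Both lists held markers of the other cell type, as given above. The limit kept 38.2% of the listed reads of cardiomyocytes and 43.1% of those of BAT cells, so that scaling moved these ratios by less than the loss of reads did for Cacnb4 and Cacna2d2. The median log2 ratio was 3.61 over the 4 members and -0.32 over all genes listed in both.

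The next comparisons reuse the BAT and cardiomyocyte lists and are given side by side with the one above. Between mouse somas and BAT cells 3 of 5 members were past the fold, all higher in somas (background 33.7% of 5076 genes) and none lower (background 26.7%). Cacna2d3 was 101-fold higher in somas (55.9 to 201), Cacnb4 6.00-fold (5.28 to 6.83) and Cacnb2 5.73-fold (5.34 to 6.14). Without the intron with the most reads of each gene (intron 2 for Cacnb2) the log2 ratio of Cacnb2 was 0.99 in place of 2.52, no longer past the fold. It rested on 4 soma reads of intron 5 against 2, 15 and 3 BAT reads of introns 1, 5 and 10. With contigs of at most 400 nt, the log2 ratio of Cacnb4 was 7.47 in place of 2.59, since the 624 nt contig dropped out of the BAT list, and that of Cacna2d3 was 9.09 in place of 6.66, with 2 reads left in BAT cells. Without the intron with the most reads in each list these were 4.82 and 4.90, but the intron left out differed between the lists. The Cacnb4 value set 54 soma reads of intron 5 against 19 BAT reads of intron 8. The Cacna2d3 value set 6 soma reads against 2 BAT reads, both of intron 31. Cacna2d1 was at 0.83, and at 1.60 with the limit on contig length. Between mouse somas and cardiomyocytes, Cacnb4 was 1276-fold higher in somas (351 to 10571), with 388 reads against 2 (background 37% of 3700 genes). Cacnb2 was 14.5-fold higher in cardiomyocytes (13.7 to 15.3, background 26.2%), a log2 ratio of -3.86. The Cacnb2 value was -8.66 without the intron with the most reads of each gene, with 4 reads left in somas. Cacna2d1 was 2.34-fold higher in cardiomyocytes (2.24 to 2.44). Across the 5 comparisons, between 58.1% and 63.1% of all shared genes were past the fold in either direction, and the members are too few for a share to be read.

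**Figure D4:**
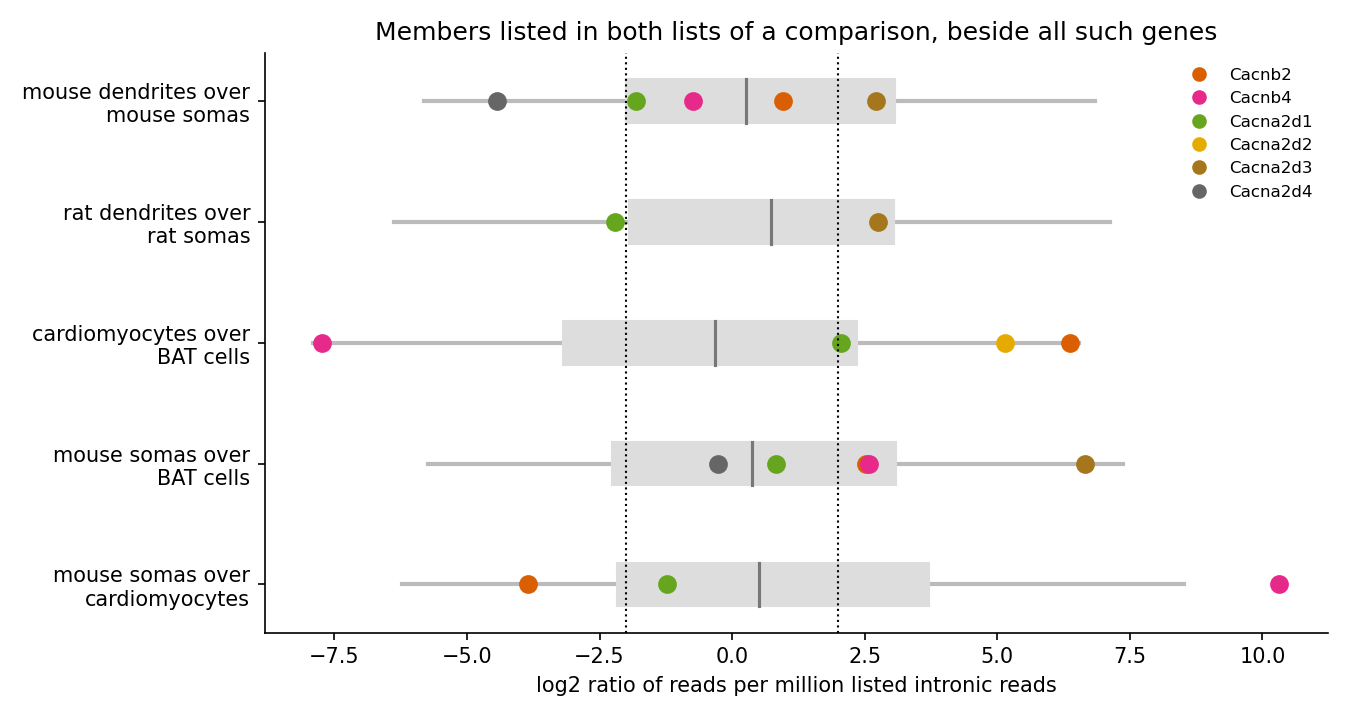
Log2 ratio of RPM for members listed in both lists (coloured points), beside all such genes (grey box from the 25th to the 75th percentile, line from the 5th to the 95th, bar at the median), with dotted lines at 4-fold. Cacnb2 reached 6.38 between cardiomyocytes and BAT cells, where the 95th percentile of all genes was 6.55.

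Introns of Cacna2d1 and Cacnb2 recurred in all 4 mouse lists. Of 37 listed introns of members, 6 were in all 4 lists, which was 16.2% against 3.70% of 46599 introns over all genes, and 19 were in 1 list (51.4% against 60.5%). Of the 6, 4 lay in Cacna2d1 and 2 in Cacnb2, and no other member had any. With introns of at least 32 reads 3 were left, a setting at which the share over all genes was not computed. In the rat, 1 of 10 member introns was in both lists, against 17.0% of 10891 introns. By its median length, a listed intron was longer than the others of the same gene in each of the 7 listed genes, but the longest intron itself held no mouse contig in 5 of them (all but Cacnb2 and Cacnb1), such as intron 2 of Cacna2d3 with 186 kb. The medians were 5.68 kb with and 1.18 kb without a contig in Cacna2d1, and 3.96 and 2.19 kb in Cacnb2.

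Contigs of members were longer than those of the whole list in cardiomyocytes, with a median of 452 nt (order-statistic interval 300 to 712) against 282 nt. In the other mouse lists the interval held the median of the list, with 260 nt (209 to 420) against 256 nt in mouse dendrites, 327 nt (225 to 492) against 277 nt in mouse somas and 222 nt (156 to 386) against 273 nt in BAT cells. Contigs of 1 gene are not independent, so these intervals are a description. In cardiomyocytes 42.6% of the member contigs were at most 400 nt long, against 63.8% of all contigs there. The longest was a Cacnb2 contig of 2299 nt.

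The amplification starts at tracts of adenines, so such tracts were counted. A run of 10 or more adenines, read along the gene's strand, lay within the contig or up to 300 nt after it for 11 of 38 member contigs in mouse dendrites (28.9% against 16.6% of all contigs of the list), 10 of 27 in mouse somas (37.04% against 28.6%), 9 of 52 in BAT cells (17.3% against 15.02%) and 21 of 61 in cardiomyocytes (34.4% against 23.4%). The exact 95% binomial intervals were 15.4 to 45.9% in mouse dendrites, 19.4 to 57.6% in mouse somas, 8.23 to 30.3% in BAT cells and 22.7 to 47.7% in cardiomyocytes. At this setting each interval held the share of its list. In cardiomyocytes that depended on the setting. With tracts of at least 6 adenines the share there was 83.6% (71.9 to 91.8%) against 55.3% of all contigs, and within 100 nt it was 34.4% (22.7 to 47.7%) against 21.8%, so that the intervals lay above the share of the list. Member contigs were also longer than the others in that list, as given above, and the part of length in these shares was not tested. Tracts of thymines lay within 9.55% of member contigs against 10.4% of all contigs, and before 7.87% against 10.04%. By list the shares went both ways, from 18.5% against 7.82% within the contigs of mouse somas (5 of 27 contigs) to 3.85% against 8.95% before those of BAT cells (2 of 52), and each exact interval held the share of its list.

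The partners of the auxiliary subunits were counted from a set of gene lists. Of all protein-coding genes with an intron, 43.8% were listed in mouse dendrites, 30.1% in mouse somas, 51.8% in BAT cells and 31.6% in cardiomyocytes, more of the long genes were, and lists of 3 to 10 genes are too small for a share to be set against these. Of 10 pore subunit genes, 8 were listed in mouse dendrites, 5 in mouse somas, 9 in BAT cells, 2 in cardiomyocytes and 6 in each rat list. In cardiomyocytes these were Cacna1c, the L-type pore of the heart, with 29798 reads and Cacna1d, another L-type pore, with 217. In mouse somas Cacna1b, the N-type pore of nerve terminals, led with 8056 reads and Cacna1e with 732, and in mouse dendrites Cacna1d with 2713 and Cacna1f with 973. BAT cells had Cacna1s, the pore of skeletal muscle, at 945 reads and Cacna1b at 636. In rat dendrites Cacna1e led with 103 reads, followed by Cacna1a with 55, and in rat somas Cacna1c with 3240 and Cacna1b with 2543.

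Of 8 gamma subunit and TARP genes, which are relatives that mostly serve AMPA receptors, 4 were listed in each of mouse dendrites, mouse somas, BAT cells and rat somas, 1 in cardiomyocytes and 2 in rat dendrites. Cacng7 led in mouse dendrites (73 reads), mouse somas (16) and BAT cells (127), Cacng2 in rat dendrites (1553) and Cacng8 in rat somas (2046). Of 4 RGK GTPases, which bind beta subunits and hold back the channel, Gem had 19777 reads in cardiomyocytes and 80 in mouse dendrites, Rem2 had 100 in mouse dendrites and Rrad had 4 in BAT cells. Of 3 STAC adaptors, Stac (748 reads) and Stac2 (57) were listed in mouse dendrites only. Of 5 thrombospondin genes, which encode ligands of alpha2delta-1, 4 were listed in mouse dendrites, led by Thbs2 (138) and Thbs3 (18), 2 in BAT cells (Thbs1 at 43, Thbs3 at 4) and 3 in cardiomyocytes, led by Thbs3 (1496) and Thbs4 (215). The RGK, STAC and thrombospondin genes were not listed in mouse somas or in the rat. These are 12 genes, and 30.1% of all protein-coding genes were listed in mouse somas, so little can be read from their absence.

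The genes whose levels were most like Cacnb2 over the 4 mouse lists were Clasp2, Hmcn1 and Robo1, with Euclidean distances of 2.18, 2.40 and 2.75 in log2(RPM + 1) among 12466 genes. Clasp2, nearest of these, had 820 RPM in mouse dendrites, 589 in mouse somas, 200 in BAT cells and 2651 in cardiomyocytes. The genes were picked for likeness in these 4 values, so their order across the lists follows from the choice.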

How the data were processed

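The deposited files hold raw read counts per intron, without normalization. Per the labels and the study's methods, the authors amplified RNA by aRNA, sequenced 50 nt read pairs, aligned them to mm9 or rn4 with RUM, counted reads within introns that mapped uniquely (Bowtie), dropped introns that held a gene prediction or a known polyadenylation site, and joined nearby reads into contigs. Which of the BAT and cardiomyocyte libraries entered the lists is not known here. The count is repeated on every contig of an intron and was taken once. Starts were shifted by 1 to count from 1.

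Members and gene lists were chosen with earlier results of these data known. The genes named were the 8 members, their introns with the most reads, the 3 genes nearest to Cacnb2 and the 2 partners with the most reads per list. Other genes were named after their values were seen, namely genes that overlap or match a member contig, and marker genes. No test was run. Introns were matched to GENCODE vM1 transcripts, RefSeq accessions found no further member, and stretches were aligned with blastn 2.17.0 (E-value at most 1e-10). Python 3.11.15, pandas 2.3.3, scipy 1.17.1, pysam 0.24.0 and matplotlib 3.10.9 were used. Rat sequence was not analysed here. Counting was tested on simulated data. Alternatives were a limit on contig length, read minimums, other scalings and tract settings.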

Additional observations from a re-analysis of the deposited data

How the results depend on the processing

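The libraries were pooled, so none was left out in turn and no value has an error between libraries. No paired analysis was possible because the lists carry 1 pooled value per group. Counting intervals are widest for members with few reads, such as Cacna2d4 in mouse dendrites and Cacnb4 in cardiomyocytes (2 reads each). Whether more reads would raise these counts was not tested.

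With introns of at least 256 reads, 3 members were listed in mouse somas, 1 in rat somas and 0 in rat dendrites. With at least 32 reads, 2 were listed in rat dendrites and 1 in rat somas, 3 introns (of 6) were in all 4 mouse lists, and 3 stretches (of 6) were covered there. Those 3 stretches all lay in Cacnb2 intron 2. Leaving out contigs on pseudogenes, an alternative chosen after seeing the data, left the other 3 stretches and none in Cacnb2 intron 2, so no stretch was left under both.

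The 8 members together had 2243 RPM in mouse dendrites, 2133 in mouse somas, 850 in BAT cells, 12750 in cardiomyocytes, 347 in rat dendrites and 782 in rat somas. In the same order, summing over contigs gave 10188, 5059, 1238, 116256 and 250 (rat somas 811), and leaving out each gene's intron with the most reads gave 2564, 3301, 1458, 13030, 204 and 2137. With contigs of at most 400 nt, which kept 47.8% of all listed reads in mouse somas, 43.1% in BAT cells, 38.2% in cardiomyocytes and 29.6% in rat somas, mouse somas had 3180, BAT cells 766, cardiomyocytes 25928 and rat somas 2296.

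Members past 4-fold numbered 2 of 5 shared members in mouse dendrites against somas. They were 3 of 5 with upper-quartile and with median scaling, 3 of 4 without the intron with the most reads of each gene and 1 of 5 with contigs of at most 400 nt. In the rat comparison, 2 of 2 became 1 of 2 with contigs of at most 400 nt and 1 of 1 without the intron with the most reads. Under the length limit the call lost in both species was Cacna2d3, which kept all its soma reads, so it was lost through the smaller soma total alone. Leaving out the intron with the most reads also gave 2 of 3 in place of 4 of 4 for cardiomyocytes against BAT cells, 2 of 4 in place of 3 of 5 for mouse somas against BAT cells and 1 of 2 in place of 2 of 3 for mouse somas against cardiomyocytes. The intron left out was chosen in each list, so it could differ between the lists of a comparison. The log2 ratio of Cacna2d2, cardiomyocytes over BAT cells, turned to -1.502 with contigs of at most 400 nt, which leaves out its 418 nt contig, and no other ratio past 4-fold changed direction. Under the alternatives, 42 of 48 values of ratios past the fold stayed past it. The 48 leave out ratios without a value because the only listed intron of a gene was removed. These were Cacna2d4 between mouse dendrites and somas, Cacna2d1 in the rat, and Cacnb4 in both comparisons with cardiomyocytes.

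Upper-quartile and median scaling shifted the median log2 ratio of all shared genes by between -0.68 and 0.45.

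With tracts of at least 6 adenines the shares were 47.4% in mouse dendrites (47.1% of all contigs), 70.4% in mouse somas (58.6%), 42.3% in BAT cells (45.4%) and 83.6% in cardiomyocytes (55.3%). The exact interval of the members held the share of the whole list except in cardiomyocytes.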
